A study of Rattus norvegicus with 6 samples.

Results

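Metallothioneins are small cysteine-rich proteins of the cytosol that bind zinc and copper and buffer the free zinc of the cell. Their genes are switched on by MTF1, a zinc finger factor that senses free zinc and binds metal response elements (MREs) in promoters, and they are also known to respond to glucocorticoids and to cytokines of the IL-6 family. Zinc enters the cytosol through importers of the ZIP family (Slc39a genes) and leaves it, to the outside or into vesicles, through exporters of the ZnT family (Slc30a genes).

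The levels of 7 genes of this system were followed in neonatal rat cardiac fibroblasts: the metallothioneins Mt1m, Mt2A and Mt3, the metal sensor Mtf1, the zinc exporter Slc30a1 and the zinc importers Slc39a14 and Slc39a8. They are 7 of the 21857 gene symbols in the count tables. The 7 genes were chosen by their symbols, with their levels in these same 6 libraries already known, so their differences between the groups are given as a description and without a test. RNA-seq libraries were made from primary fibroblasts of newborn Sprague-Dawley hearts (the labels give the strain as Noway), 3 from cells given the empty plasmid (genotype label WT, the Vector group) and 3 with the genotype label FTO overexpression, from cells given a plasmid for FTO, an RNA demethylase that removes the N6-methyladenosine mark. Plasmids were delivered by transfection of the whole culture. No source used here describes a selection of transfected cells.

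Levels are given as CPM, the counts of a gene scaled to the size of its library and adjusted by TMM, a trimmed mean of the ratios between libraries. Each library held 13178952 to 17857999 counted reads. Within a group, the counts of any pair of libraries varied beyond sampling noise (chi-square per degree of freedom 1.58 to 8.38). Fto itself measured 88.2 ± 1.20 CPM in Vector against 92.2 ± 1.32 CPM in the other group (SD, n = 3), a log2 difference of 0.06 (SE 0.0468) that did not pass the quasi-likelihood test of edgeR (adjusted p = 0.239), so the group is called the FTO-labelled libraries throughout. Its CPM did not overlap between the groups, as was the case for 70.3% of all genes tested. The study reported efficient transfection by qRT-PCR, a measurement of FTO protein, and less N6-methyladenosine in a dot blot. Those are other assays than these libraries. The cultures also held RNA of other cell types. Markers said here to rise or fall passed edgeR at an adjusted p under 0.05, as did 65.9% of all genes tested. The 10 macrophage markers summed to 1606 to 1661 CPM in Vector and to 252 to 287 CPM in the FTO-labelled libraries, where C1qb and C1qc had at most 3 counts each. Of these 10, 9 fell and 1 rose, Adgre1, by 2.22 on the log2 scale. The 8 cardiomyocyte markers summed to 1465 to 1495 CPM in Vector and to 2203 to 2244 CPM in the other group. Of these 8, 7 rose and 1 fell, Tnnt2, by 0.25 on the log2 scale. The 10 fibroblast markers summed to 41392 to 41977 CPM and to 21563 to 22544 CPM. The fibroblast markers moved both ways, as 5 of the 10 rose, Dcn by 6.90, Lum by 3.15 and Pdgfra by 2.49 on the log2 scale, and 5 fell, among them the abundant Col1a1 and Col3a1. The 8 endothelial markers summed to 28.7 to 30.5 and to 54.7 to 57.8 CPM, with Cldn5 at 0 in every library. Of the 6 tested, 4 rose and 1 fell, Erg, by 1.55 on the log2 scale. The 6 Schwann and neural markers summed to 123 to 128.6 and to 77.7 to 79.2 CPM. The 6 mural markers summed to 635.6 to 660.9 and to 229.4 to 273.7 CPM, but of the 5 tested, 3 fell and 2 rose, Kcnj8 by 4.89 and Abcc9 by 2.45 on the log2 scale. The part of these cell types in the differences described here was not tested, and in bulk RNA fewer cells of a type and less RNA per cell cannot be told apart.

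Across the 7 genes, 5 had higher CPM in every FTO-labelled library than in any Vector library (Mt1m, Mt2A, Slc39a14, Slc39a8 and Slc30a1), the levels of Mtf1 overlapped, and Mt3 had no count. Among all 12941 genes tested, 35.5% lay wholly higher in the FTO-labelled libraries and 70.3% did not overlap in either direction. Of the 6 genes with enough counts to be fitted, 4 were at least 2-fold higher, where 10.4% of all genes were, and their median log2 fold change was 1.85 against 0.00 over all genes. The choice of the genes used these differences, so the shares are no result about them.

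**Figure D1:**
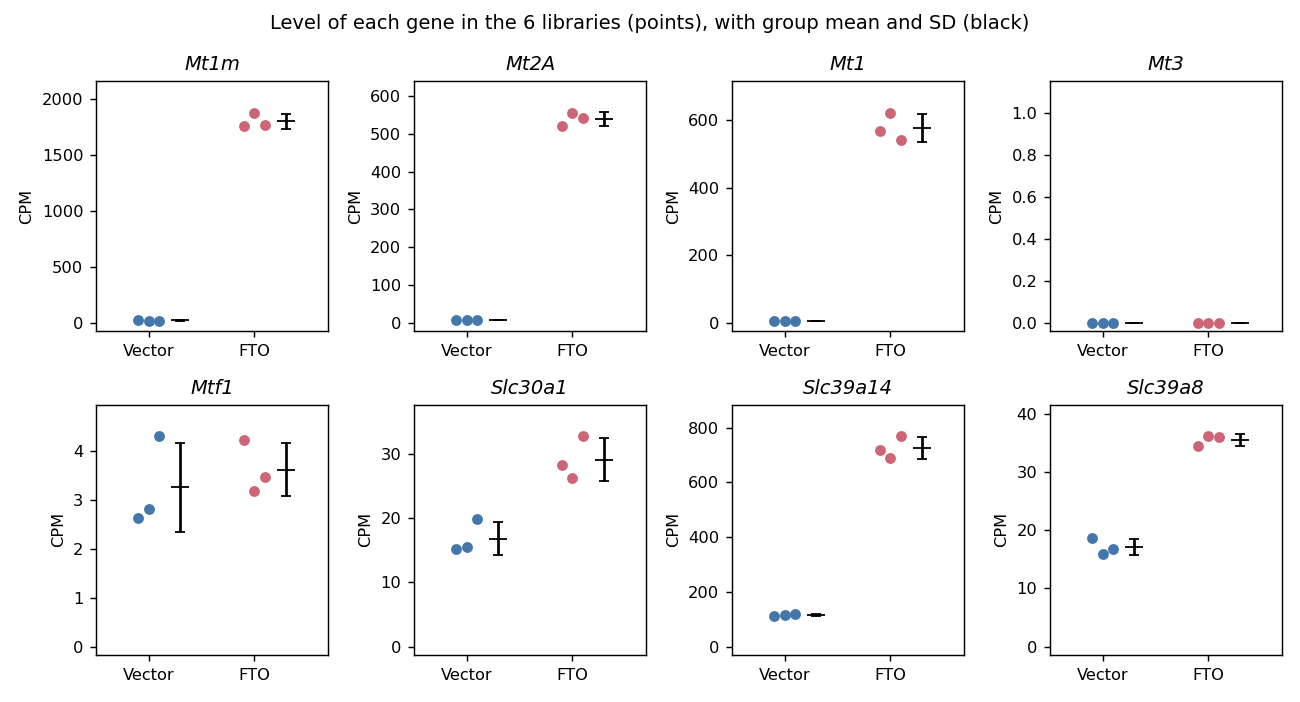
CPM of the 7 genes and of Mt1 in each of the 6 libraries, each panel with its own linear axis, with the points as libraries and the black marks as the group mean ± SD. The 3 FTO-labelled libraries sit far above the 3 Vector libraries for Mt1m, Mt2A, Mt1 and Slc39a14, the groups overlap for Mtf1, and Mt3 is at 0 in all 6.

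The metallothioneins stood furthest apart. Mt2A, one of the widely expressed metallothioneins, was at 6.21, 7.04 and 7.54 CPM in Vector replicates 1, 2 and 3, from 85, 105 and 109 counts. In the FTO-labelled libraries it was at 520.3, 555.8 and 541.6 CPM, from 7422, 7365 and 9704 counts. The lowest of these was far over the highest Vector library. The group means were 6.93 ± 0.671 and 539.2 ± 17.9 CPM (SD, n = 3), a 77.6-fold difference and a log2 fold change of 6.28 (SE 0.0662).

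Mt1m was at 21.1, 20.3 and 20.6 CPM in Vector, from 288, 303 and 297 counts. It reached 1760, 1880 and 1771 CPM in the FTO-labelled libraries, from 25109, 24914 and 31738 counts. Replicates lay close together in both groups and the groups were wide apart. The means were 20.6 ± 0.378 and 1804 ± 66.4 CPM (SD, n = 3), an 87.4-fold difference and a log2 fold change of 6.45 (SE 0.0542). In fitted fold change, Mt1m was number 74 and Mt2A number 79 from the top of the 12941 genes.

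Mt1m needs care as a gene. RefSeq (assembly GRCr8) lists this symbol as a pseudogene with a span of 373 bases, on another chromosome than the cluster in which the order of genes is Mt1, Mt2A, Mt3 and Mt4. How reads that match both Mt1m and Mt1 were assigned is not given in the sources used here, and the likeness of their sequences was not measured, so the split of reads between these symbols is uncertain. Mt1, the other widely expressed metallothionein, was therefore examined beside it. Mt1 was at 3.88, 4.76 and 4.50 CPM in Vector and at 566.1, 622 and 541 CPM in the FTO-labelled libraries, and rose by 7.03 (SE 0.0825) on the log2 scale (adjusted p = 3.3e-18, edgeR). With the counts of Mt1 and Mt1m summed into a single gene, the log2 fold change was 6.57.

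The share of Mt1m in the reads of Mt1 and Mt1m together was 84.5%, 81.0% and 82.0% in Vector, with exact 95% binomial (Clopper-Pearson) intervals from 80.2% to 88.1%, 76.7% to 84.9% and 77.7% to 85.9%. It was 75.7%, 75.1% and 76.6% in the FTO-labelled libraries, with intervals from 75.2% to 76.1%, 74.7% to 75.6% and 76.2% to 77.0%. Each FTO-labelled library lay under each Vector library, although the intervals of Vector replicate 2 and FTO replicate 3 overlapped. The intervals cover counting error at most and treat each read as an independent molecule, so they may be too narrow. Mt1 differed more between the groups than Mt2A, as the ratio of Mt1 to Mt2A counts was 0.632 ± 0.0406 in Vector and 1.07 ± 0.0624 in the other group (SD, n = 3). The ratio of Mt1m to Mt2A was 3.00 ± 0.346 and 3.35 ± 0.0648 and overlapped between the groups.

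Together the reads counted to Mt1, Mt1m and Mt2A made up 0.00310% to 0.00325% of all counted reads in Vector, which is about 1 read in 30775 to 32268. In the FTO-labelled libraries they made up 0.285% to 0.307%, or 1 read in 325.2 to 351.4. The summed level was 31.95 ± 0.738 CPM and 2920 ± 120 CPM (SD, n = 3), a 91.4-fold difference. It does not depend on how counted reads were split among these 3 symbols. Reads left uncounted because they match several places, if any, would be missing from it.

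**Figure D2:**
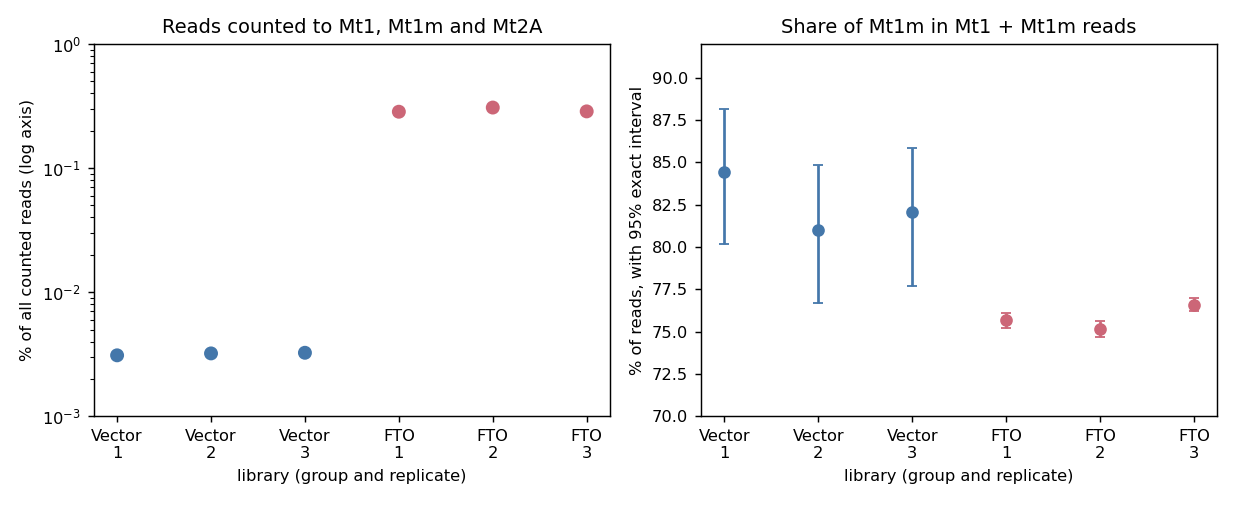
Left, reads counted to Mt1, Mt1m and Mt2A as a percentage of all counted reads in each library, on a log axis. Right, the share of Mt1m in the reads of Mt1 and Mt1m with its exact 95% binomial interval; the axis starts at 70%. The metallothionein share is near 0.003% in each Vector library and near 0.3% in each FTO-labelled library, while the share of Mt1m is 81.0% to 84.5% and 75.1% to 76.6%.

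Mt3, a metallothionein known mainly from brain, had 0 counts in all 6 libraries, and so did Mt4, which is known from stratified epithelia. A count of 0 allows up to 3 counts, which is 0.201 to 0.219 CPM in the Vector libraries and 0.167 to 0.226 CPM in the FTO-labelled libraries. Neither gene could be tested, and a level under these limits was not detectable at this depth.

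The sequences before the starts of the metallothionein genes are shown because these genes form a single cluster in which Mt1 and Mt2A were high in the FTO-labelled libraries while Mt3 had no count. The 250 bases before the gene start are printed 5′ to 3′ on the strand of the gene, from RefSeq (GRCr8), and Slc30a1, the exporter named in textbooks as a target of MTF1, is set beside them. Capitals mark the core of the MRE, searched as TGCACNC or TGCGCNC on both strands, so that a motif on the opposite strand reads as its reverse complement.
Mt1 (chr19:10832976-10833225, minus strand): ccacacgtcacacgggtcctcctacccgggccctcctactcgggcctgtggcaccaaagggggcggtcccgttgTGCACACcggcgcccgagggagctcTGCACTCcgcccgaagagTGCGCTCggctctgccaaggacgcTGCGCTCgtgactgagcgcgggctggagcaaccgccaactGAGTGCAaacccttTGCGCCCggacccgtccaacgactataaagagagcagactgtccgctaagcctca
Mt2A (chr19:10838709-10838958, minus strand): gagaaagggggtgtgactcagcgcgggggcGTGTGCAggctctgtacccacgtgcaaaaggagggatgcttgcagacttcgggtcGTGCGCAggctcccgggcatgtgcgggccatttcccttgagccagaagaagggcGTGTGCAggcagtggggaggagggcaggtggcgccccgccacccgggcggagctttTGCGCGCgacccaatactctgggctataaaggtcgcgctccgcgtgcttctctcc
Mt3 (chr19:10856081-10856330, minus strand): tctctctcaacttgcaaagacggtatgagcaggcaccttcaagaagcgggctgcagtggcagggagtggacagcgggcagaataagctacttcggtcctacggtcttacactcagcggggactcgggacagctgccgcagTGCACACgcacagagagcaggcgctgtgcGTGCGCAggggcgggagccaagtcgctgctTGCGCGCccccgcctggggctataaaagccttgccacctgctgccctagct
Slc30a1 (chr13:106021769-106022018, plus strand): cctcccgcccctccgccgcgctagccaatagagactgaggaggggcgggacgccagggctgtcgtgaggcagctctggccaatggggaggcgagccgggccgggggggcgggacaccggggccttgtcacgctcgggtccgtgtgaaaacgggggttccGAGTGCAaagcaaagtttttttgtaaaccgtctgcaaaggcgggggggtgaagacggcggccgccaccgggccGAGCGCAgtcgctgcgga
There were 6 cores before Mt1, 4 before Mt2A, 3 before Mt3 and 2 before Slc30a1. None of these overlapped another searched motif. In the same window of all 27457 promoters in the table, 21.2% held at least 1 core, 5.13% at least 2 and 0.277% (76 promoters) at least 4.

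The core was not limited to genes that were higher in the FTO-labelled libraries. Mt3 held 3 cores with no count in any library. The promoter of Slc39a7, an importer that moves zinc out of the endoplasmic reticulum, held 4 cores, while this gene fell by 0.39 on the log2 scale. Mtf1 held 2 cores and Slc39a8 held 0. Among the 18 other zinc transporter genes with a promoter in the table, 7 held at least 1 core, and among the 5 of the 7 chosen genes with one (Mt1m and Slc39a14 had no entry), 4 did. The antioxidant response element, searched as TGACNNNGC on both strands, occurred once each before Mt1, Mt2A, Slc30a1 and Slc39a8 and 2 times before Mtf1. At least 1 was held by 4 of the 18 other zinc transporter genes with a promoter and by 10.2% of all promoters. The STAT motif TTCNNNGAA occurred in 1 of the 5, Slc39a8, and in 7.52% of all promoters. These matches describe letters in a window and are neither measured binding sites nor causes.

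**Figure D3:**
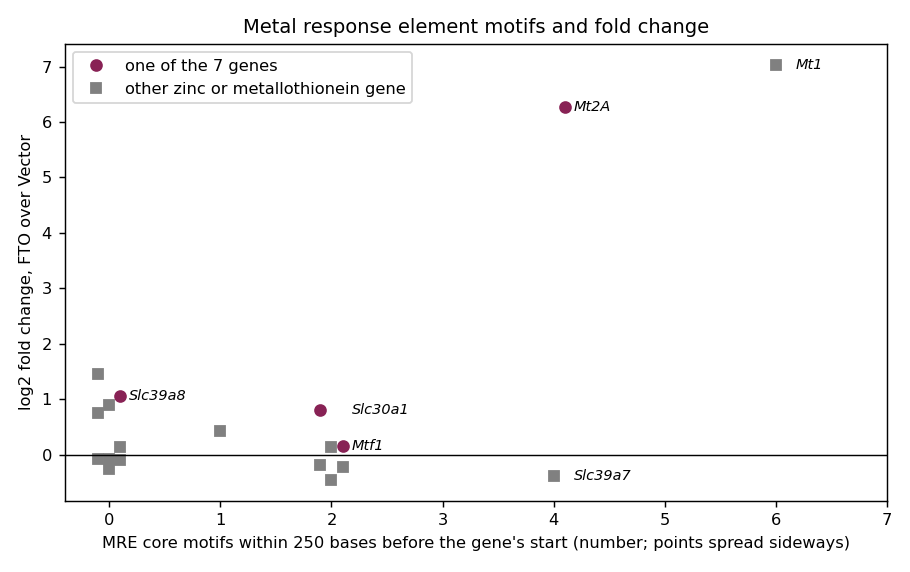
Number of MRE cores in the 250 bases before the gene start (horizontal, points spread sideways) and log2 fold change of the FTO-labelled libraries over Vector (vertical) for the 19 zinc and metallothionein genes that had both values. Mt1 with 6 and Mt2A with 4 lie near 7 and 6 on the log2 scale, whereas Slc39a7, also with 4, lies under 0.

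The sensor itself was measured at a low level. Mtf1 was at 2.63, 2.82 and 4.29 CPM in Vector, from 36, 42 and 62 counts, and at 4.21, 3.17 and 3.46 CPM in the FTO-labelled libraries, from 60, 42 and 62 counts. The ranges overlapped, and Vector replicate 3 was the highest of all 6. The means were 3.25 ± 0.909 and 3.61 ± 0.534 CPM (SD, n = 3), with a log2 fold change of 0.15 (SE 0.217). This value rests on few counts and on single libraries, as it was 0.40 without Vector replicate 3, 0.02 without Vector replicate 1, 0.05 without Vector replicate 2, 0.03 without FTO replicate 1 and 0.23 without FTO replicate 2. Activity of MTF1 is set mainly by zinc binding and entry into the nucleus, which these data do not measure.

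Slc30a1 encodes ZnT1, the exporter of the plasma membrane. It was at 15.1, 15.5 and 19.8 CPM in Vector and at 28.2, 26.3 and 32.8 CPM in the FTO-labelled libraries. The groups did not overlap, though the spread within each was wider, relative to its mean, than for the other transporters among the 7. The means were 16.8 ± 2.59 and 29.1 ± 3.33 CPM (SD, n = 3), a 1.74-fold difference and a log2 fold change of 0.80 (SE 0.110).

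Slc39a14 encodes ZIP14, an importer of the plasma membrane that also carries iron and manganese and is known as an acute-phase gene of liver. It was at 111.5, 115.5 and 120.6 CPM in Vector, from 1525, 1722 and 1742 counts. In the FTO-labelled libraries it was at 720.1, 689.7 and 769.1 CPM, from 10272, 9139 and 13780 counts. The groups were far apart against the spread within them. The means were 115.8 ± 4.54 and 726.3 ± 40.0 CPM (SD, n = 3), a 6.27-fold difference and a log2 fold change of 2.65 (SE 0.0508), number 407 from the top of all genes tested.

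Slc39a8 encodes ZIP8, the closest relative of ZIP14. It was at 18.6, 16.0 and 16.7 CPM in Vector and at 34.5, 36.2 and 36.1 CPM in the FTO-labelled libraries. Every library of the second group was above every library of the first. The means were 17.1 ± 1.38 and 35.6 ± 0.958 CPM (SD, n = 3), a 2.08-fold difference and a log2 fold change of 1.06 (SE 0.0790). The ratio of Slc39a14 to Slc39a8 counts was 6.80 ± 0.714 in Vector and 20.4 ± 1.21 in the FTO-labelled libraries (SD, n = 3), so the importers differed between the groups to unequal extents.

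To place these genes among their families, the other zinc transporters were tested. Of 22 listed, 16 had enough counts, of which 6 rose, 5 fell and 5 did not pass (edgeR, adjusted p under 0.05). Over all genes, 65.9% passed. The median log2 fold change of the 16 was 0.03, beside 0.00 over all genes, and the median of its size without sign was 0.236, beside 0.363. At the threshold of the study, a log2 fold change of at least 1 in size with an unadjusted p-value under 0.05, 2 of the 16 passed, and 19.6% of all genes did. The 2 were both at low levels, Slc30a3 with a mean of 59.8 counts and Slc39a4 with a mean of 22.3 counts.

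Among the exporters, 2 rose and 3 fell of 6 tested. Slc30a3, the ZnT of synaptic vesicles, rose from 2.16 ± 0.119 to 5.94 ± 1.13 CPM, and Slc30a7, of the Golgi, rose by 0.19 on the log2 scale, a call that was lost without FTO replicate 3 (0.13, adjusted p = 0.0589), which left 4 exporters past the threshold. Slc30a5, which loads zinc into the secretory pathway, fell from 100 ± 3.07 to 72.6 ± 1.54 CPM. Slc30a9, of mitochondria, fell by 0.25 and Slc30a4, of endosomes, fell by 0.19 on the log2 scale. Slc30a6, the Golgi partner of Slc30a5 and named for that role after its values were seen, was at -0.09 on the log2 scale and did not pass.

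Among the other importers, 4 rose and 2 fell of 10 tested. Slc39a6, which encodes the plasma membrane importer ZIP6, rose from 114 ± 3.06 to 211.2 ± 6.02 CPM, or by 0.89 (SE 0.0444) on the log2 scale (adjusted p = 9.4e-11, edgeR). Slc39a10, its close relative, rose from 55.1 ± 0.692 to 92.5 ± 3.31 CPM, or by 0.75 (SE 0.0519) on the log2 scale (adjusted p = 5.0e-09, edgeR). Slc39a1 rose by 0.42 on the log2 scale. Slc39a7 fell from 234 ± 0.663 to 178.9 ± 0.639 CPM and Slc39a13, an importer of vesicles in connective tissue cells, fell by 0.22. The fourth importer that rose, Slc39a4, the intestinal zinc importer, was singled out after its values were seen. It had 0, 0 and 1 counts in Vector and 30, 43 and 60 counts in the FTO-labelled libraries, which is at least 13.2-fold higher against a floor of 3 counts per library.

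**Figure D4:**
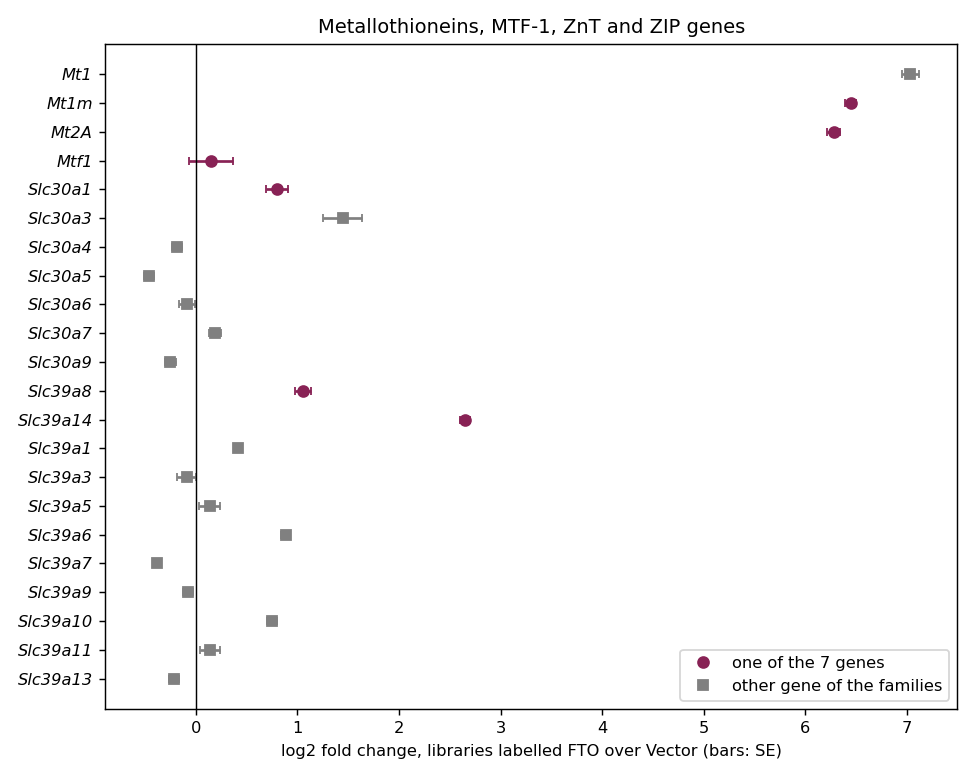
Log2 fold change of the FTO-labelled libraries over Vector, with its SE, for 22 genes of the metallothionein, ZnT and ZIP families and Mtf1; Slc39a4 is left out as its Vector libraries were at or under the floor. Mt1, Mt1m and Mt2A lie above 6 and Slc39a14 at 2.65, while the other transporters lie between -0.46 and 1.44.

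Genes for other metals were examined next, because metallothioneins also bind copper and ZIP14 and ZIP8 also carry manganese and iron. Of 14 copper-handling genes tested, 4 rose, 3 fell and 7 did not pass, so that 7 of 14 were called, where 65.9% of all genes were. Steap4 and Steap2, metalloreductases that reduce iron and copper at membranes, rose from 0.903 ± 0.148 to 314.2 ± 11.0 CPM and from 42.1 ± 1.66 to 511.6 ± 10.5 CPM, log2 fold changes of 8.42 (SE 0.0882) and 3.60 (SE 0.0482). Cox17, a copper chaperone of mitochondria, rose by 0.43. Steap3 fell by 0.84, Slc31a1, the copper importer of the plasma membrane, fell by 0.51, and Slc31a2 fell by 0.27 on the log2 scale. The call of Slc31a2 was lost without Vector replicate 1 and without FTO replicate 1, with adjusted p = 0.0812 and 0.0637.

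Of 6 manganese and iron carriers tested, 2 rose and 3 fell, a called share of 83.3% beside the 65.9% over all genes. Slc11a2, the divalent metal importer DMT1, rose from 49.0 ± 1.27 to 217 ± 6.33 CPM, or by 2.15 (SE 0.0482) on the log2 scale (adjusted p = 5.2e-15, edgeR). Slc11a1, its relative of phagocytes, rose by 0.83. Slc40a1, the iron exporter ferroportin, fell from 22.2 ± 2.16 to 8.47 ± 1.62 CPM, Atp13a2, of lysosomes, fell by 1.08 and Atp2c1, the calcium and manganese pump of the Golgi, fell by 0.53 on the log2 scale. Slc11a1, which rose, and Slc40a1, which fell, are both abundant in macrophages, of whose 10 markers 9 fell. The part of macrophages in these differences was not tested.

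Genes of metal and oxidative stress passed in 9 of 9 cases, with 7 higher and 2 lower and a median log2 fold change of 0.60, where 65.9% of all genes passed. Nqo1, a quinone reductase, rose from 32.3 ± 0.787 to 125.2 ± 24.9 CPM, Hmox1, the haem oxygenase that heavy metals induce, rose from 161.2 ± 4.28 to 379.8 ± 28.2 CPM, and Srxn1 rose by 0.71 on the log2 scale. Slc7a11, the cystine importer, fell by 0.76. The other that fell, Hspa1b, a heat shock gene, was named after its values were seen and fell by 1.46.

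Lastly, the signals known to act on metallothionein genes were compared, and their part in the metallothionein differences was not tested. Of 12 genes of IL-6 family signalling, 9 rose and 2 fell, with a median of 1.12, and 7 passed the threshold of the study. The shares over all genes were 65.9% past the adjusted threshold and 19.6% past that of the study. The lists were chosen with earlier results of these data known, so their shares are given as a description. Il6 rose from 2.01 ± 0.604 to 57.5 ± 5.54 CPM, Socs3, the feedback inhibitor that STAT3 induces, from 12.0 ± 1.31 to 70.2 ± 4.26 CPM and Osmr, the oncostatin M receptor, from 139.2 ± 3.92 to 763.3 ± 77.7 CPM. Il6r, the IL-6 receptor itself, fell by 0.57 on the log2 scale. The other gene of the list that fell, Osm, which encodes oncostatin M, was named after its values were seen. It had 17, 22 and 30 counts in Vector and 5, 5 and 6 counts in the FTO-labelled libraries. Osm fell by 2.16 on the log2 scale. Of 7 genes in the glucocorticoid list, 6 rose and 1 fell, with a median of 1.27, again beside 65.9% of all genes called. The list holds the receptor and an activating enzyme besides target genes. Hsd11b1, which activates glucocorticoids within cells, rose from 81.0 ± 4.41 to 771.3 ± 25.7 CPM, Nr3c1, the receptor, by 1.34 and Zbtb16 by 1.29 on the log2 scale. Tsc22d3, a classical target of the receptor, moved the other way and fell by 0.69. Sgk1, Fkbp5 and Per1, the remaining target genes of the list and singled out after their values were seen, rose by 1.27, 0.73 and 0.61.

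**Figure D5:**
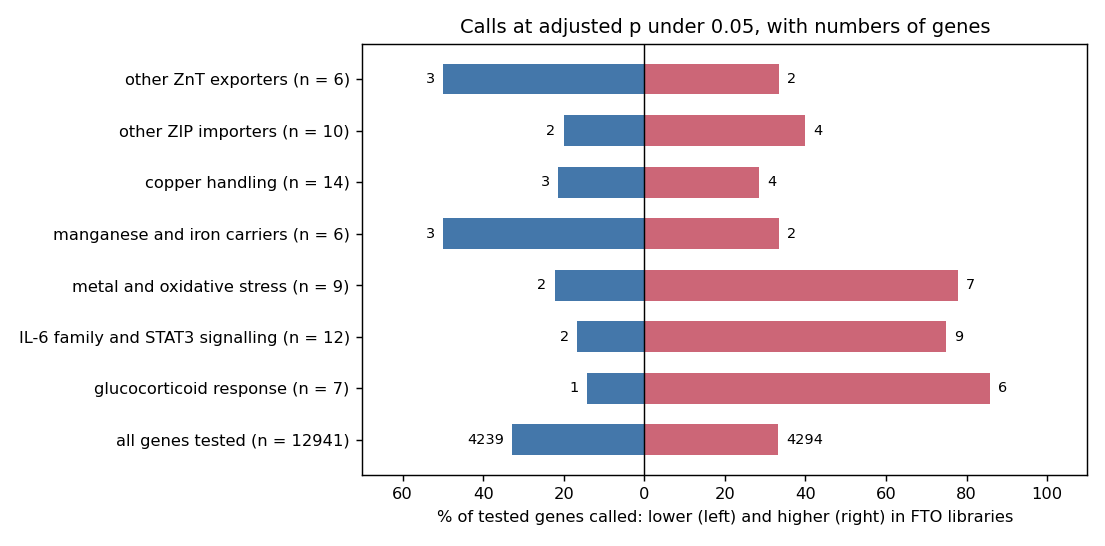
Share of the tested genes of each list that rose (right) or fell (left) in edgeR at an adjusted p under 0.05, with the numbers of genes beside the bars and all 12941 genes at the bottom. The other zinc transporters split both ways, with 6 higher and 5 lower, and the stress, IL-6 and glucocorticoid lists have 7 of 9, 9 of 12 and 6 of 7 genes on the right. The lists were chosen with earlier results of these data known, so the shares are a description.

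The genes whose profile over the 6 libraries was nearest to Mt2A and to Slc39a14 were found by the Euclidean distance of log2 CPM, centred on the mean of the 6 libraries, among genes with at least 100 counts on average. For Mt2A these were Arhgap8 (distance 0.198), Mt1m (0.311) and Prg4 (0.344), so 1 of the 3 was another metallothionein symbol. Mt1, with 4366.5 counts on average, was not among the 3. For Slc39a14 they were Htr2a (0.0912), Pcsk5 (0.115) and Plpp3 (0.165). With 2 groups of 3 libraries, this distance reflects chiefly the size of the difference between the groups.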

How the data were processed

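The authors deposited raw counts, a whole number per gene symbol and library. Their processing notes name Trimmomatic and the rn6 build; the aligner, counter, annotation, use of strand and treatment of multi-mapping reads are not given in the sources used here. RefSeq names, gene order and promoters come from another build (GRCr8), so coordinates are given only for the printed promoter sequences, in GRCr8.

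Genes were kept by filterByExpr (minimum count 10), which left 12941 of 21857 symbols. Groups, taken from the genotype labels, were compared with edgeR 4.0.16 (R 4.3.3; TMM, glmQLFit, glmQLFTest, two-sided, no covariate), with Benjamini-Hochberg adjustment over all genes tested. DESeq2 1.42.0 was an alternative. The procedure was tested on simulated counts. The labels do not say that replicates were separate cultures, so p-values measure the spread between these libraries only.

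The 7 genes and the lists were chosen with earlier results of these data known, so the shares of the lists are given as a description. Lists hold whole families or textbook roles. The text names Fto, the 7 genes and, per list, up to 3 genes with the largest increase and 3 with the largest decrease among those with an adjusted p-value under 0.05 and a mean of at least 50 counts, besides the nearest profiles, Mt1 and Mt4 as the remaining metallothioneins, cell type markers chosen after their values were seen, and genes said to be singled out. Sco2 is not analysed here. Mt1 and Mt1m were summed as an alternative chosen after seeing the data.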

Additional observations from a re-analysis of the deposited data

How the results depend on the processing

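The log2 fold changes of Mt1m, Mt2A, Slc39a14, Slc39a8 and Slc30a1 kept their direction under DESeq2, DESeq2 size factors, library size alone, no filter, a mean of at least 10 counts, the replicate block and leaving out each library in turn. They ran from 6.42 to 6.57, from 6.20 to 6.34, from 2.60 to 2.69, from 1.01 to 1.12 and from 0.69 to 0.93. The highest value of Mt1m was that with Mt1 and Mt1m summed and moved by more than the replicate SD. Mtf1 ran from 0.02 to 0.40. The number of the 7 genes without overlap was 5, and 6 without Vector replicate 3, when Mtf1 no longer overlapped. Fto ran from 0.05 to 0.08, with adjusted p-values from 0.182 to 0.450. Over all genes, 7795 to 9009 passed the adjusted threshold. Slc30a7 did not pass without FTO replicate 3 (0.0589). Counts of called genes per list stayed within 1.5 times their value, the widest being 6 to 9 for copper handling.

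Replicate numbers showed no sign of pairing the libraries. Deviations from the group means correlated at 0.01, -0.06 and 0.01 for equal numbers, and from -0.07 to 0.07 for unequal numbers. With 3 libraries per group, such values cannot settle whether libraries shared a preparation. With the replicate block, 8399 genes passed, the median log2 fold change of the 6 fitted genes of the 7 was 1.85, and Fto was at 0.06. Depth limits Mtf1, Slc39a4 and the genes at 0.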

Other observations

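The 3 nearest named protein-coding genes on either side of the metallothionein cluster, by their order in RefSeq (GRCr8), were looked up after the other results were seen. On the side of Mt1, Nup93, a nuclear pore component, rose from 44.8 ± 1.64 to 55.2 ± 2.39 CPM (SD, n = 3), Slc12a3 had 3 counts on average and was not tested, and Herpud1, an endoplasmic reticulum stress gene, fell from 150.3 ± 5.81 to 72.2 ± 5.03 CPM. On the side of Mt4, Bbs2, a ciliary gene, was at 13.3 ± 1.59 and 14.6 ± 1.93 CPM and did not pass (adjusted p = 0.310, edgeR). Ogfod1 fell by 0.48 on the log2 scale, and Nudt21, an RNA processing factor, rose by 0.18. None of the 5 tested neighbours changed by more than 1.06 on the log2 scale in size, beside 7.03 for Mt1 and 6.28 for Mt2A.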
